A study of Mus musculus with 12 samples.

Results

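Necab1, Actn2, Scin, Ankrd35, Nyap2, Greb1, Hlf and Gpr82 are 8 genes that stood at low levels in wild-type (WT) mouse thymocytes and were read at much higher levels after induced loss of Satb1. They were chosen by name, as genes at a low level in WT cells (in CPM, read counts scaled to the size of the library) and with a large rise in the knockout (KO) of one or both cell types, with no numeric threshold, and are 8 of the 49997 genes in the count tables. Their WT means were under 1 CPM, except for Greb1 in DP (3.40 CPM) and for Actn2 and Scin in CD4 (3.34 and 2.10 CPM). Because the KO and WT levels chose the 8 genes, their KO against WT differences are given as a description, with no test.

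The study sequenced poly(A) RNA of sorted thymocytes. The 4 groups, of 3 libraries each, were DP Satb1 KO, DP WT, CD4 Satb1 KO and CD4 WT. A DP (double-positive) thymocyte expresses CD4 together with CD8, and a CD4 thymocyte has moved on to keep CD4 alone. Tamoxifen, the agent that induces the knockout, is the labelled treatment of WT and KO libraries alike, and each library's batch number is the same as its replicate number. The sources do not name the driver of the recombination, the age of the mice or any pooling of animals. Nor do they say that replicates are separate mice, and the p-values then reflect variation among libraries that may be technical in part.

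SATB1 is a nuclear protein that binds AT-rich DNA and shapes chromatin loops in thymocytes, where it is abundant at the DP stage. It is known both as an activator and as a repressor, depending on the gene. The 8 genes are known mostly from other tissues. NECAB1 binds calcium in neurons, ACTN2 is the alpha-actinin of the muscle Z-disc, and SCIN (scinderin or adseverin) severs actin filaments when calcium rises. NYAP2 is a neuronal adaptor that ties PI3-kinase to the WAVE actin regulator in mouse, ANKRD35 carries ankyrin repeats, HLF is a transcription factor of the PAR bZIP family, GREB1 is an estrogen receptor partner best known from human breast cancer cells, and GPR82 is an orphan G protein-coupled receptor.

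The shallowest library, DP WT replicate 3, held 22790504 counts and the deepest, CD4 KO replicate 2, held 62422640, and 3 counts, the limit of detection used here, equalled 0.0465 to 0.134 CPM. Satb1 itself averaged 2609 ± 231 CPM in DP KO and 3867 ± 29.1 CPM in DP WT (SD, n = 3 each), a log2 fold change of -0.56 (SE 0.08) with an adjusted p of 0.000539 by edgeR's quasi-likelihood test. It averaged 1499 ± 40.7 CPM in CD4 KO and 3273 ± 258 CPM in CD4 WT, a log2 fold change of -1.12 (SE 0.08, edgeR adjusted p 7.89e-06). Transcripts of Satb1 were thus still counted in every KO library, and the deleted stretch of Satb1 is not stated. The CD4 KO libraries differed from CD4 WT in genes that mark the stage of a thymocyte. Zbtb7b, which directs the CD4 lineage, averaged 31.5 CPM in CD4 KO and 386 CPM in CD4 WT (log2 fold change -3.61, edgeR adjusted p 4.82e-06), and Ccr7, a chemokine receptor gained late in the thymus, averaged 37.7 CPM in CD4 KO and 343 CPM in CD4 WT (-3.18, 5.36e-06). The DP-stage genes were higher in CD4 KO: Rag1 averaged 743 CPM in CD4 KO and 200.2 CPM in CD4 WT (1.89, 4.59e-05), Dntt 605 and 147 CPM (2.05, 1.49e-06), and Cd8b1 270.0 and 104 CPM (1.38, 0.000120). For these 5 genes the CD4 KO mean lay between those of DP KO and CD4 WT, and the part of this shift in the CD4 values of the 8 genes was not tested. In bulk RNA fewer cells that make a transcript and less of it per cell cannot be told apart. DP WT replicates 1 and 2 stood apart from the other libraries. They had Xist, the female-specific RNA, at 0.845 and 0.273 CPM, against 190 to 601 CPM in the other 10. Ddx3y, a gene of the Y chromosome, was read in all 12 libraries, from 40.4 CPM in DP KO replicate 3 to 127 CPM in DP WT replicate 1. The other 10 libraries thus held female-specific and male-specific RNA together. DP WT replicates 1 and 2 also had 33782 and 30359 genes with at least 1 count, against 22819 to 27519 in the others. Results in DP are therefore also given against DP WT replicate 3 alone where that ended a call or moved a called value by more than 1.5 times. Values in DP that were not called are not all repeated in this way.

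The promoters of 7 of the 8 genes were found in RefSeq (GRCm38.p6), as windows of 250 bases before and 50 bases after the transcription start, and Greb1 had a pair of windows. Of these, 4 are printed to show the span of base composition and of motif letters among genes that behaved alike in the counts: a muscle gene, a CpG-rich promoter of a transcription factor, an AT-rich promoter of a neuronal adaptor and the promoter of a receptor gene on the X chromosome. Each runs 5′ to 3′ on the strand of its gene, which is chr13:12340683-12340982 minus for Actn2, chr11:90390868-90391167 minus for Hlf, chr1:81076700-81076999 plus for Nyap2 and chrX:13661113-13661412 plus for Gpr82. Capitals mark 4 motifs on either strand. The nuclear receptor element was searched as AGGTCA. The motif of RUNX factors was searched as TGTGGT, and capitals of the Actn2 window show it as read on the opposite strand, ACCACA. The motif of zinc-finger factors such as GATA3 was searched as AGATAA, and that of TCF1 and LEF1 as CTTTGA.
Actn2: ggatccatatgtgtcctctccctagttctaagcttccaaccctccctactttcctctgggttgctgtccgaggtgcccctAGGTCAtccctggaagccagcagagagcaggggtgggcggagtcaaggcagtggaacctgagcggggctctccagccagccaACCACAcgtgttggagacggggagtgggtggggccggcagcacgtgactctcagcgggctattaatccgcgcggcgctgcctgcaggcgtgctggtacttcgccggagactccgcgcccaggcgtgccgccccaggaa
Hlf: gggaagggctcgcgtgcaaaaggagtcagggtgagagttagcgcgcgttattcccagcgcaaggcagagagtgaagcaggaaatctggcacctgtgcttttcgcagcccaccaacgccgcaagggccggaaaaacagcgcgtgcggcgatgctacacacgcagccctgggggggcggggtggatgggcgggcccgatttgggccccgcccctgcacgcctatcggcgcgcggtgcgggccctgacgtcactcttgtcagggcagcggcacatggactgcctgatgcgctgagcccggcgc
Nyap2: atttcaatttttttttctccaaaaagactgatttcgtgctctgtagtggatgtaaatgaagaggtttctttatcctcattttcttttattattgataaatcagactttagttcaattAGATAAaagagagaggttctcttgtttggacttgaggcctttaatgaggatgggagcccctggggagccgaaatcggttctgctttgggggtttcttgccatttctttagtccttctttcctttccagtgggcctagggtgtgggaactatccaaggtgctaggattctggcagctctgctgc
Gpr82: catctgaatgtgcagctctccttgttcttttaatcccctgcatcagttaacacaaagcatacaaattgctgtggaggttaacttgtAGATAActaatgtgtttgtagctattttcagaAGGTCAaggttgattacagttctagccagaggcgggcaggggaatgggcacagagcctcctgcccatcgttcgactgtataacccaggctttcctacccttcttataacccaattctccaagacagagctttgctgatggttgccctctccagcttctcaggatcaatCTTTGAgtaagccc

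The 8 windows differed widely in CpG content. Hlf had 30 CpG dinucleotides and 67.3% G or C, Actn2 and the upstream Greb1 window had 19 CpG each, Scin had 16 and Ankrd35 had 14. Nyap2, Gpr82 and the downstream Greb1 window had 3 CpG each, with 41.7%, 46% and 46.3% G or C, against a median of 7 CpG and 52.7% over all 32841 promoters of the same length. No motif searched lay in all 8 windows. The E-box letters CANNTG, which are not capitalised, lay in 5 of 8 windows and in 72.3% of all promoters. AGGTCA lay in 4 of 8 windows (Actn2, Ankrd35, Greb1 upstream and Gpr82) and in 16.3% of all promoters. AGATAA lay in 2 windows (Nyap2 and Gpr82) and in 11.2% of all, CTTTGA in 2 (Gpr82 and Greb1 downstream) and in 16% of all, and TGTGGT in 1 (Actn2) and in 16.8% of all. The TATA box letters TATAAA, the AT-rich core ATATAT and the PAR bZIP site TTANGTAA were in none of the 8 windows, and in 13.6%, 5.42% and 2.32% of all promoters. Both strands were searched for every motif, no capitalised motif overlapped another, an E-box match overlapped the ACCACA of Actn2, and a match of letters is a description, not a binding site.

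**Figure D1:**
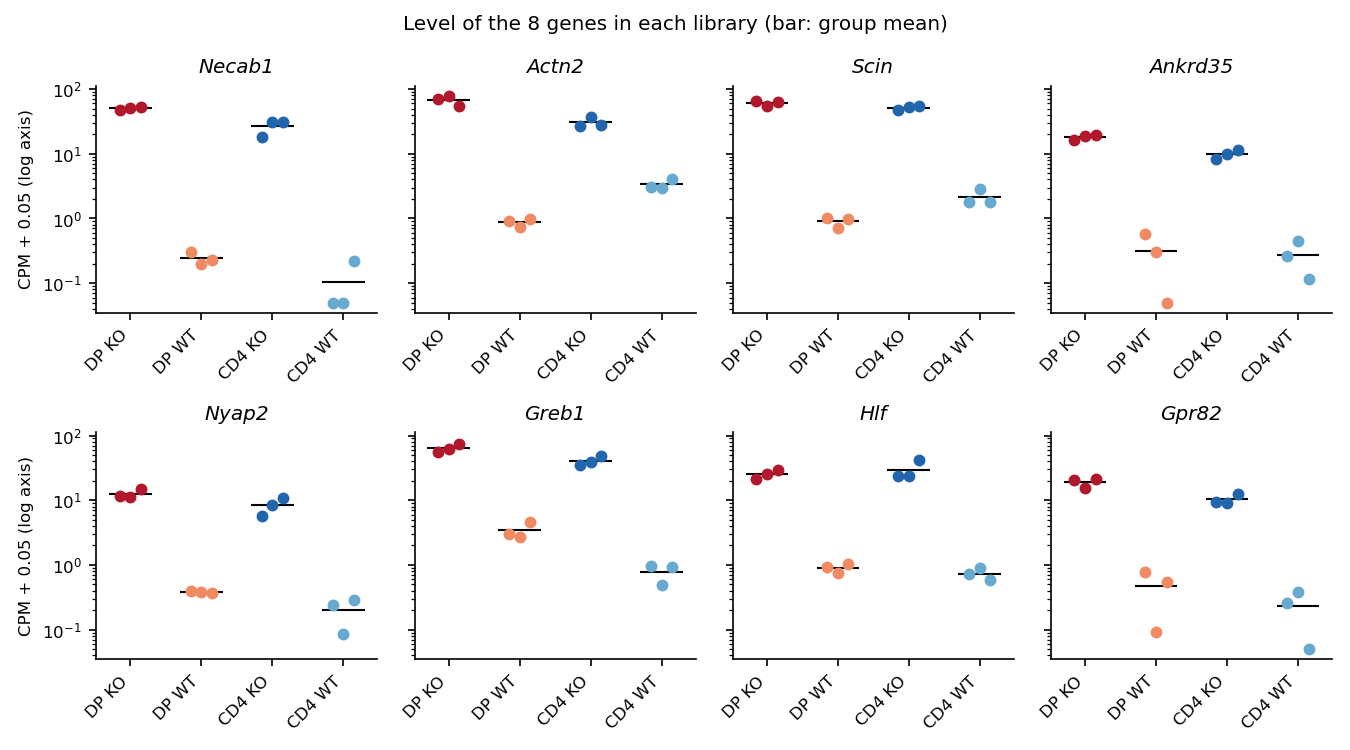
Level of each of the 8 genes in every library, in CPM plus 0.05 on a log axis, with KO left of WT for DP and then for CD4 thymocytes. Points are libraries and bars are group means. In every panel the 3 KO libraries of a cell type lie above its 3 WT libraries.

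Among the cytoskeletal and calcium-binding genes, Necab1 (chr4:14952245-15149804, minus strand, mm10) had the widest gap. It had 47.5, 50.2 and 53.2 CPM in DP KO replicates 1, 2 and 3, against 0.251, 0.147 and 0.179 CPM in DP WT. It had 18.2, 30.7 and 31.4 CPM in CD4 KO replicates 1, 2 and 3, against 0, 0 and 0.168 CPM in CD4 WT. Neither cell type showed overlap between KO and WT. The log2 fold change was 8.01 (SE 0.16) in DP and 9.39 (SE 0.55) in CD4. The CD4 value leans on few WT counts: the 3 CD4 WT libraries held 5 counts in all, against 4214 in CD4 KO, a depth-scaled ratio of 732 with an exact 95% counting interval of 313 to 2256. All 5 came from CD4 WT replicate 3, and without that library the fitted CD4 value was 13.45 against a group at 0, which is no bound.

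Actn2 (chr13:12269426-12340732, minus strand) encodes the Z-disc actinin that crosslinks actin filaments in skeletal and heart muscle. It had 69.4, 77.1 and 55.4 CPM in DP KO replicates 1, 2 and 3, against 0.868, 0.693 and 0.937 CPM in DP WT. It had 27.0, 36.7 and 27.4 CPM in CD4 KO, against 3.00, 2.93 and 4.09 CPM in CD4 WT. CD4 WT was the highest WT group for this gene, and CD4 was the comparison with the smallest gap of the 8, the lowest KO library standing 6.61 times above the highest WT library. The log2 fold change was 6.38 (SE 0.18) in DP and 3.21 (SE 0.18) in CD4.

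Scin (chr12:40059769-40134228, minus strand), the calcium-dependent actin-severing relative of gelsolin, followed the same order. It had 65.8, 54.5 and 64.0 CPM in DP KO replicates 1, 2 and 3, against 0.983, 0.651 and 0.937 CPM in DP WT. It had 47.5, 52.2 and 55.0 CPM in CD4 KO, against 1.75, 2.82 and 1.74 CPM in CD4 WT. KO levels were alike in DP and CD4, their libraries overlapping, while WT levels were lower in DP. KO over WT, the log2 fold change was 6.20 (SE 0.16) in DP and 4.59 (SE 0.18) in CD4.

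The adaptor and repeat proteins sat lower. Ankrd35 (chr3:96670131-96691034, plus strand) had 16.1, 18.8 and 19.7 CPM in DP KO replicates 1, 2 and 3, against 0.526, 0.252 and 0 CPM in DP WT. It had 8.19, 10.01 and 11.6 CPM in CD4 KO, against 0.212, 0.391 and 0.0671 CPM in CD4 WT. DP WT replicate 3 had no read of this gene, and no KO library of either cell type came near a WT library. The difference came to a log2 fold change of 5.92 (SE 0.41) in DP and 5.33 (SE 0.36) in CD4. Against DP WT replicate 3 alone no fold is given, since that library is at 0. Nyap2 (chr1:81076522-81367706, plus strand) had 11.6, 11.2 and 14.9 CPM in DP KO, against 0.343, 0.336 and 0.312 CPM in DP WT. It had 5.59, 8.33 and 11.0 CPM in CD4 KO, against 0.193, 0.0373 and 0.235 CPM in CD4 WT. KO and WT were apart in both cell types, with log2 fold changes of 5.24 (SE 0.21) in DP and 5.84 (SE 0.45) in CD4.

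Greb1 and Hlf are the nuclear regulators of the set. Greb1 (chr12:16670615-16801394, minus strand) had 56.3, 61.1 and 73.3 CPM in DP KO replicates 1, 2 and 3, against 2.97, 2.63 and 4.598 CPM in DP WT. It had 35.5, 39.4 and 48.3 CPM in CD4 KO, against 0.905, 0.447 and 0.872 CPM in CD4 WT. The 3 DP WT libraries were thus above all 3 CD4 WT libraries, and Greb1 had the highest DP WT level of the 8 genes per kilobase of counted sequence (0.374 CPM per kb). The log2 fold change was 4.28 (SE 0.20) in DP and 5.82 (SE 0.23) in CD4. Hlf (chr11:90336535-90390917, minus strand), known for keeping blood stem cells quiescent and as the fusion partner of TCF3 in a human leukaemia, was the only gene of the 8 whose mean was higher in CD4 KO than in DP KO. It had 21.5, 25.2 and 29.2 CPM in DP KO, against 0.868, 0.693 and 0.982 CPM in DP WT. It had 23.9, 24.0 and 41.1 CPM in CD4 KO, against 0.674, 0.839 and 0.536 CPM in CD4 WT. CD4 KO replicate 3 carried the high mean, and the CD4 KO and DP KO libraries overlapped. The log2 fold change was 4.94 (SE 0.18) in DP and 5.40 (SE 0.28) in CD4.

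Gpr82 (chrX:13646134-13667433, plus strand), the receptor of the set, had 20.3, 15.2 and 21.1 CPM in DP KO replicates 1, 2 and 3, against 0.731, 0.0420 and 0.491 CPM in DP WT. It had 9.45, 9.16 and 12.5 CPM in CD4 KO, against 0.212, 0.336 and 0 CPM in CD4 WT. The WT libraries of each cell type scattered widely at these few counts, yet none came near a KO library. The log2 fold change was 5.55 (SE 0.49) in DP and 5.62 (SE 0.45) in CD4. Of the 18610 bases over which reads of Gpr82 were counted, 87.5% lay in 1 block, chrX:13646134-13662418. The promoter window printed above, chrX:13661113-13661412, lies inside this block, so most of the counted length is upstream of that transcription start. Levels per kilobase of Gpr82 use the whole counted length. The whole gene lies inside the span of Cask on the opposite strand without sharing an exon base with it. The strand setting of the counting is not stated, so reads of Cask introns and of Gpr82 cannot be told apart.

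**Figure D2:**
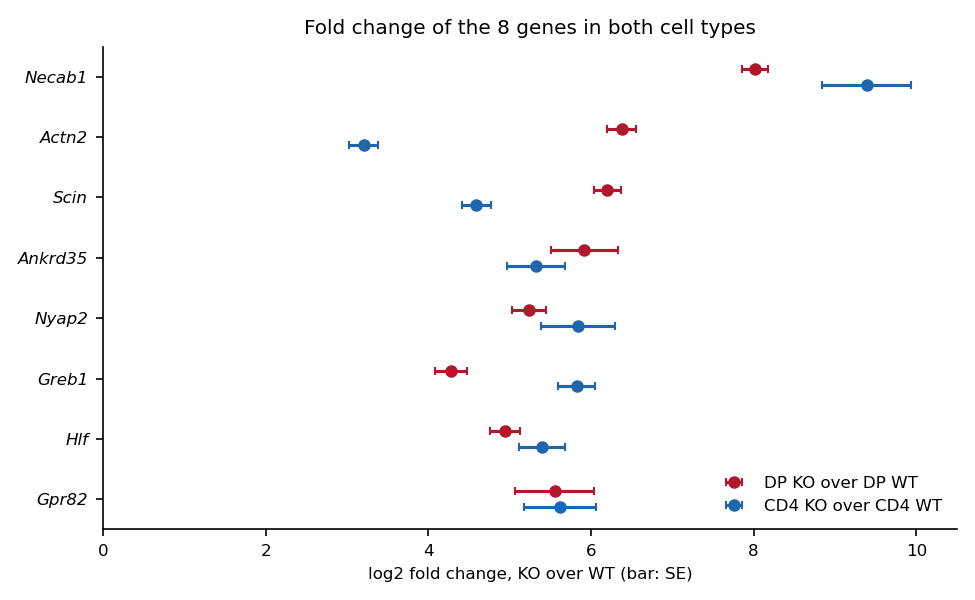
Log2 fold change of KO over WT for each of the 8 genes, in DP (upper point of each row) and CD4 (lower point), with bars of 1 SE. Necab1 lies farthest right in both cell types (8.01 and 9.39), and Actn2 has the widest gap between them (6.38 and 3.21).

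In all 8 genes the 3 KO libraries lay above the 3 WT libraries, in DP and in CD4, and each gene was higher in KO in all 3 batches. Of all genes tested, 23.7% in DP and 26.9% in CD4 had KO libraries that did not overlap and lay above WT, and since the rule used these levels, nothing is read from the members' count. The median log2 fold change of the 8 genes was 5.74 in DP and 5.51 in CD4, against about 0.01 and 0.00 over all genes tested. By size, Necab1 ranked 2 of 16776 genes in DP and 1 of 17316 in CD4, while the lowest rank was 53 in DP (Greb1) and 126 in CD4 (Actn2). By edgeR's test, at an adjusted p under 0.05, the higher genes were 16.7% of all genes tested in DP and 20.9% in CD4.

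Per kilobase of counted sequence, the order of the KO levels was similar in both cell types. In DP KO, Actn2 (22.5 CPM per kb) and Scin (20.5) were highest, followed by Necab1 (10.04), Greb1 (7.003), Hlf (4.36), Ankrd35 (3.74), Gpr82 (1.01) and Nyap2 (0.519). In CD4 KO, Scin (17.2 CPM per kb) and Actn2 (10.2) led again, with Necab1 (5.34), Hlf (5.11) and Greb1 (4.52) close together and then Ankrd35 (2.04), Gpr82 (0.556) and Nyap2 (0.342). Neighbours in this order overlapped between libraries for Actn2 and Scin and for Hlf and Ankrd35 in DP KO, and for Necab1, Hlf and Greb1 in CD4 KO, and all other neighbours were apart. Actn2 in DP KO stood above 88.8% of the 29426 genes with a count in that group, while Nyap2 stood above 56.3%, so the 8 genes lay from the middle to the upper part of the range. By the same measure some were above the middle in WT already. In DP WT, with 38777 genes with a count, Greb1 stood above 64.6%, Scin above 62.9%, Actn2 above 62.7% and Hlf above 57.2%, while Nyap2 was lowest at 12.5%. In CD4 WT the 8 genes ran from 9.28% (Nyap2) to 60.9% (Actn2).

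The KO level was higher in DP than in CD4 for 7 of the 8 genes, and for 6 of these, all but Scin, the DP KO and CD4 KO libraries did not overlap. Of all genes tested, 18.1% had DP KO libraries that lay above the CD4 KO libraries without overlap and 20.5% had them below, and since the rule used the KO levels nothing is read from the members' count. The DP KO mean was 2.21 times the CD4 KO mean for Actn2, 1.88 times for Necab1, 1.83 times for Ankrd35, 1.82 times for Gpr82, 1.55 times for Greb1 and 1.52 times for Nyap2. Within CD4 KO, replicate 3 was the highest library for 7 genes and replicate 1 the lowest for 7, as for 38.2% and 30.1% of all genes tested. In DP KO replicate 3 was the highest for 6, as for 38.2% of all genes, while the lowest was replicate 1 for 4 genes, replicate 2 for 3 and replicate 3 for Actn2 alone.

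Levels in CD4 WT and DP WT are given as a description with no test, because the rule also used the WT levels. Actn2 averaged 3.34 ± 0.650 CPM in CD4 WT and 0.833 ± 0.126 CPM in DP WT (SD, n = 3 each), a log2 fold change of CD4 over DP of 2.01 (SE 0.26). Scin averaged 2.10 ± 0.616 CPM in CD4 WT and 0.857 ± 0.180 CPM in DP WT, a log2 fold change of 1.31 (SE 0.31). Greb1 went the other way, at 0.741 ± 0.255 CPM in CD4 WT and 3.40 ± 1.05 CPM in DP WT, a log2 fold change of -2.20 (SE 0.34). Ankrd35 (-0.26), Hlf (-0.28), Nyap2 (-1.17) and Gpr82 (-1.05) had log2 fold changes below 0 that rest on 19 to 96 counts per group, and Necab1 had too few counts for one. More genes had a count in DP WT replicates 1 and 2 than elsewhere, as given above, and the part of this in the WT differences was not tested.

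**Figure D3:**
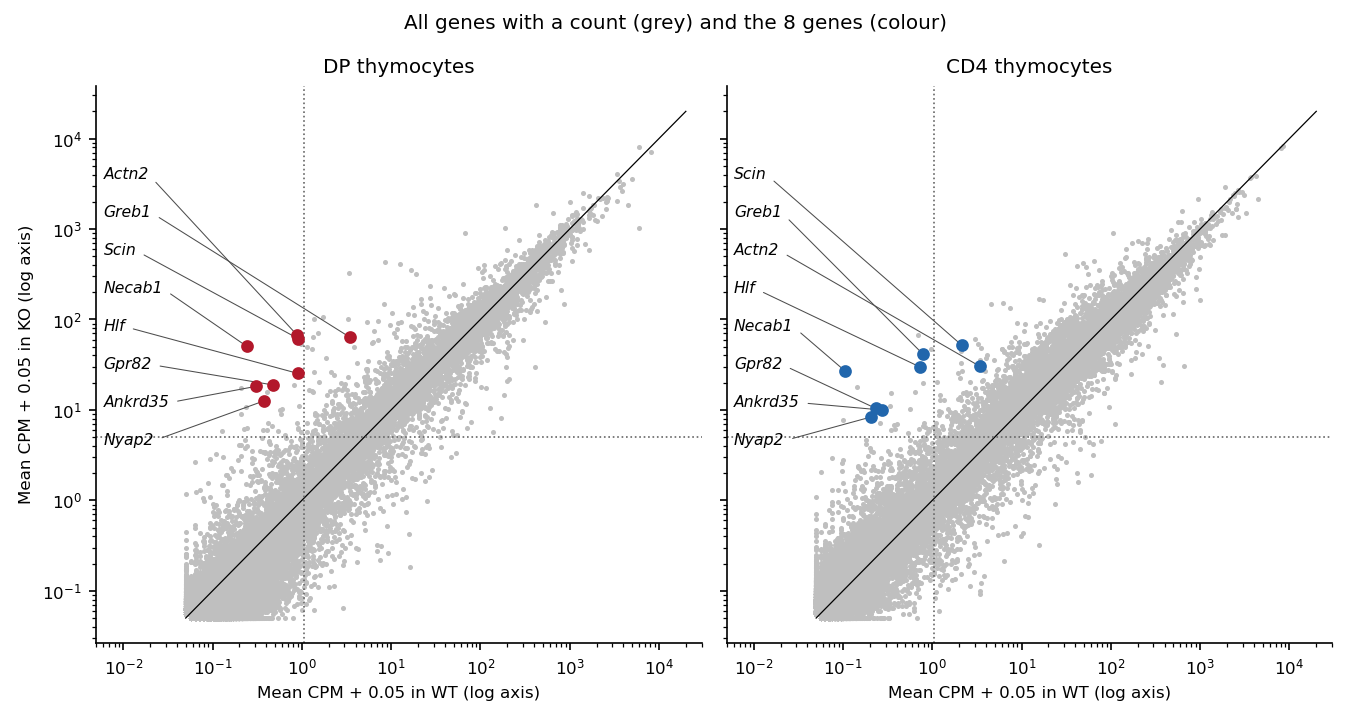
Mean level in KO against mean level in WT, in CPM plus 0.05 on log axes, for every gene with a count (grey) and the 8 genes (colour). Dotted lines mark 1 CPM in WT and 5 CPM in KO, and the corner above and to the left of them holds 30 genes in DP and 30 in CD4.

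How many genes behave this way was counted with fixed limits, a mean under 1 CPM in WT and of at least 5 CPM in KO, with no test. In DP, 30 of the 27318 genes under the WT limit with a count met them, and 21 genes met the mirror limits. The 8 genes of the list gave 7 of the 30, Greb1 standing outside at 3.40 CPM in DP WT. In CD4, 30 of 21699 met the limits and 21 the mirror limits, and the list gave 6 of the 30, with Actn2 (3.34 CPM in CD4 WT) and Scin (2.10 CPM) outside. The 2 sets shared 11 genes, 36.7% of each, of which 5 are on the list: Necab1, Ankrd35, Nyap2, Hlf and Gpr82. The others included Thbs2, Lrrn3, Fndc1, Serpinb1a and Gm16702. Thbs2, a matrix glycoprotein, averaged 17.2 CPM in DP KO (7.76 to 36.0 over the libraries) and 0.157 CPM in DP WT, and 7.78 CPM in CD4 KO and 0.0497 CPM in CD4 WT. Among those that met the limits in 1 cell type, Evi2a (18.8 CPM in DP KO and 0.777 CPM in DP WT) and Art2b (15.6 and 0.352 CPM) stood high in DP. Sdc1, the plasma cell marker syndecan-1 (47.2 CPM in CD4 KO and 0.920 CPM in CD4 WT), and Lpar4, a lysophosphatidic acid receptor (15.4 and 0.292 CPM), stood high in CD4. Meeting the limits in 1 cell type does not mean that a gene rose there alone. Sdc1 averaged 101.9 CPM in DP KO and 1.32 CPM in DP WT, and missed the DP limits by its WT level only.

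The levels of the 8 genes followed one another over the 12 libraries, with a Pearson r between 0.875 and 0.997 over the 28 pairs on log2(CPM + 0.5). These points fall into KO and WT clusters and share their libraries, and the genes were chosen for that split, so the values are a description. By the same measure over 11551 genes, Baz1a, a chromatin remodelling subunit, and Serpine2, a protease inhibitor, were most like Necab1 (0.997 each) and Nyap2 (0.996 and 0.995). Elovl5 and Maf were most like Actn2 (0.993 each), Arhgef10l and Slc27a6 most like Scin (0.991 and 0.990), and Dipk2a and Fam111a most like Greb1 (0.995 each). Sdc1 and Serpine2 were nearest to both Ankrd35 (0.993 and 0.992) and Gpr82 (0.993 and 0.991), and Acot5 and Oaf to Hlf (0.991 and 0.990). By Spearman's rho only Oaf for Hlf and Serpine2 for Gpr82 were again among the 2 nearest.

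Whether genes beside the 8 also changed was examined within 500 kb of each, a window that held 192 other genes. In DP, 72 were tested and 20 were higher and 8 lower in KO, or 27.8% higher where 16.7% of all genes were. In CD4, 75 were tested and 14 were higher and 10 lower, or 18.7% higher where 20.9% of all genes were. Against DP WT replicate 3 alone the spread of the control cannot be estimated, so shares called in that fit are not compared. The neighbours' higher share in DP was therefore not shown to hold against that library. The neighbours of Necab1 and Gpr82 made up 8 of the 20 in DP.

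Beside Necab1, 4 of 5 tested neighbours were higher in DP KO and 1 of 5 in CD4 KO. Tmem64, a membrane protein gene 116 kb away, averaged 111 ± 20.9 CPM in DP KO and 17.8 ± 2.32 CPM in DP WT (SD, n = 3 each), a log2 fold change of 2.66 (SE 0.14, edgeR adjusted p 1.70e-06). In CD4 the same gene had 142 ± 23.5 CPM in KO and 128 ± 23.2 CPM in WT, a log2 fold change of 0.16 (SE 0.14, adjusted p 0.439). CD4 WT was thus already at the level of DP KO for Tmem64, unlike Necab1, whose CD4 WT level was near 0. Pip4p2, a phosphoinositide phosphatase gene 37.0 kb away, averaged 13.6 ± 2.43 CPM in DP KO and 6.76 ± 0.946 CPM in DP WT (log2 fold change 1.03, edgeR adjusted p 0.00133). Against DP WT replicate 3 alone its log2 fold change was 0.80, with an adjusted p of 0.0862.

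Gpr82 lies in a cluster with Gpr34, a receptor for lysophosphatidylserine 5.28 kb upstream of the counted span of Gpr82, and inside Cask, a membrane scaffold kinase gene. Gpr34 averaged 2.72 ± 0.705 CPM in DP KO and 0.142 ± 0.152 CPM in DP WT, a log2 fold change of 4.59 (SE 0.58, edgeR adjusted p 0.000346), or 3.12 against DP WT replicate 3 alone (adjusted p 0.0153). It averaged 2.75 ± 0.377 CPM in CD4 KO and 2.50 ± 0.873 CPM in CD4 WT, a log2 fold change of 0.16 (SE 0.27, adjusted p 0.692). The 2 adjacent receptors therefore parted in CD4, where Gpr82 was 10.4 ± 1.83 CPM in KO and 0.182 ± 0.170 CPM in WT. Cask was higher in both cell types, at 10.9 ± 1.46 CPM in DP KO and 3.47 ± 0.971 CPM in DP WT (log2 fold change 1.68, edgeR adjusted p 0.000293), and at 7.86 ± 1.89 CPM in CD4 KO and 3.00 ± 0.569 CPM in CD4 WT (1.40, adjusted p 0.000817).

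**Figure D4:**
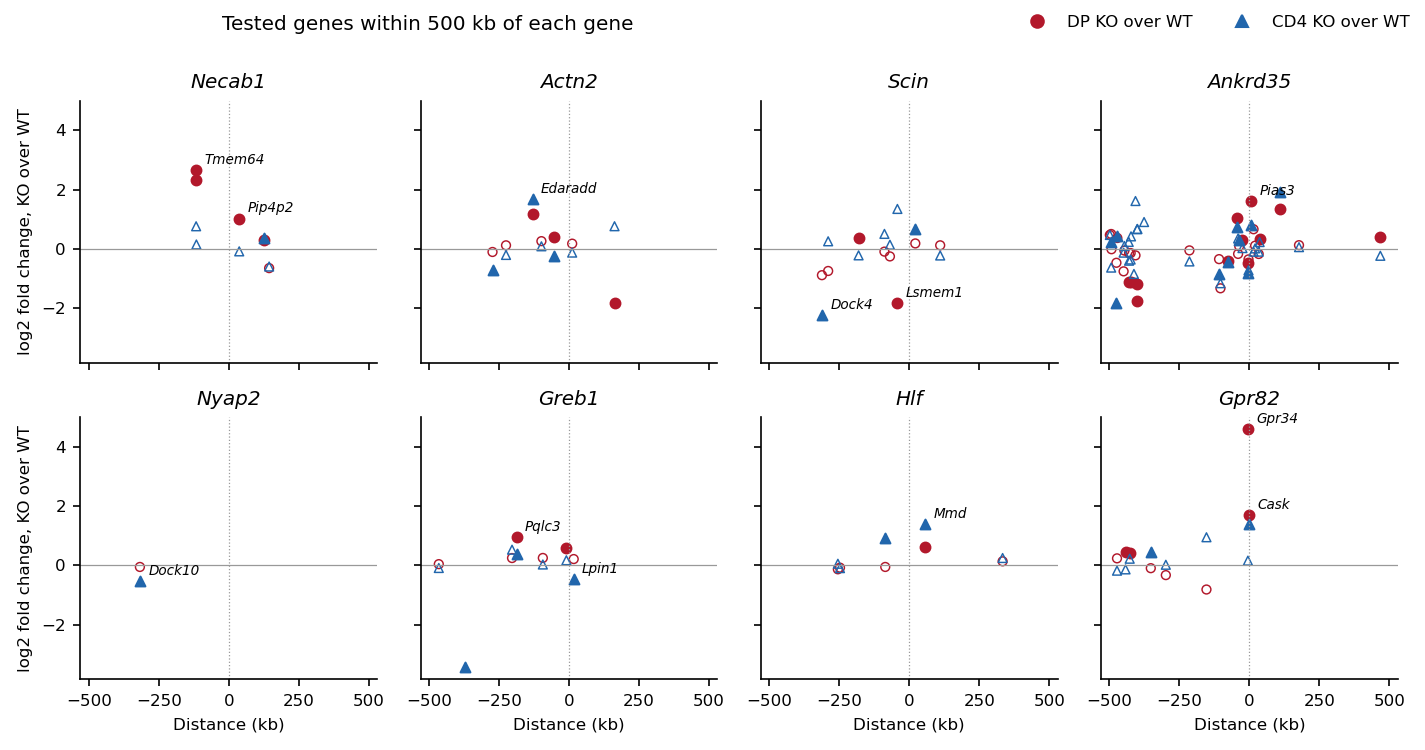
Log2 fold change of KO over WT for every tested gene within 500 kb of each of the 8 genes, by distance in kb between gene ends, negative upstream. Circles are DP and triangles CD4, and filled symbols have an edgeR adjusted p under 0.05. Gpr34 (4.59 in DP) and Tmem64 (2.66 in DP) are the highest neighbours.

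At the other 6 genes the neighbours were mixed. Pias3, a SUMO ligase gene 5.33 kb from Ankrd35, averaged 39.8 ± 1.08 CPM in DP KO and 13.2 ± 0.777 CPM in DP WT (log2 fold change 1.61, edgeR adjusted p 1.68e-06), and 36.8 ± 1.78 CPM in CD4 KO and 21.1 ± 0.835 CPM in CD4 WT (0.81, adjusted p 5.12e-05). Of 32 tested neighbours of Ankrd35 in DP, 6 were higher and 6 lower. Edaradd, an adaptor of the ectodysplasin receptor 130 kb from Actn2, rose in DP KO (1.18, adjusted p 0.000395) and in CD4 KO (1.69, 1.82e-05). Its DP value was 0.80 against DP WT replicate 3 alone, with an adjusted p of 0.00636. Mmd, 58.0 kb from Hlf, rose in DP KO (0.63, adjusted p 0.00633) and CD4 KO (1.39, 3.80e-05), and Stxbp4, 85.6 kb away on the other side, rose in CD4 KO (0.91, 0.00119). The DP value of Mmd was 0.40 against DP WT replicate 3 alone, with an adjusted p of 0.236. Around Greb1, Pqlc3 rose in DP KO (0.95, adjusted p 0.000553) and CD4 KO (0.37, 0.00549), E2f6, 9.515 kb away, rose in DP KO (0.58, 0.00373, or 0.45 and 0.162 against DP WT replicate 3 alone), and Lpin1, 16.7 kb away, fell in CD4 KO (-0.46, 0.000985). Near Scin, Lsmem1 fell in DP KO (-1.83, adjusted p 0.000178) and Dock4 fell in CD4 KO (-2.23, 0.000158). The 1 tested neighbour of Nyap2, Dock10, fell in CD4 KO (-0.54, adjusted p 0.000233).

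The relatives and partners of the 8 genes were followed in 9 lists of 122 genes, of which 120 were in the tables. The lists were chosen with earlier results of these data known, so their shares are a description and nothing is read from an excess. In DP, 86 were tested and 28 were higher and 17 lower in KO (52.3% in either direction, against 30.8% of all genes tested), with a median log2 fold change of -0.02. In CD4, 90 were tested and 24 were higher and 24 lower (53.3%, against 39.5% of all genes), with a median of -0.10. With DP WT replicate 3 as the only control, the spread of the control cannot be estimated, so shares called in that fit are not compared.

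The lists of relatives and partners of Necab1, Actn2 and Scin had 20 genes tested in each cell type. Of these, 2 were higher in DP KO and 3 in CD4 KO, or 10% and 15%, where 16.7% and 20.9% of all genes tested were. In each cell type 5 were lower, or 25%, where 14.1% in DP and 18.6% in CD4 of all genes tested were. Of the 3 tested calcium sensors none was higher in DP KO and 2 were lower. These were Necab3, at 4.23 ± 0.264 CPM in DP KO and 7.65 ± 0.927 CPM in DP WT (log2 fold change -0.85, edgeR adjusted p 0.00285, or -0.83 and 0.0565 against DP WT replicate 3 alone), and Hpcal1 (-0.84, 2.14e-05). In CD4, 1 of 4 was higher, Hpcal1 by 0.22 (adjusted p 0.0287), a value of 0.16 to 0.23 that no longer passed when CD4 WT replicate 1 or 2 or CD4 KO replicate 1 was left out. Among the actinins and Z-disc proteins, 2 of 10 were higher and 2 lower in DP, and 2 of 9 higher and 2 lower in CD4. The non-muscle actinins, which thymocytes use, were abundant: Actn1 averaged 372 ± 15.2 CPM in DP KO and 377 ± 6.46 CPM in DP WT (-0.01, adjusted p 0.918), and 343 ± 33.9 CPM in CD4 KO and 523 ± 17.6 CPM in CD4 WT (-0.61, adjusted p 0.000361). Actn4 had log2 fold changes of -0.16 in DP and 0.08 in CD4, and Actn3 one of 0.35 in DP, that did not pass. Against DP WT replicate 3 alone the DP value of Actn3 was 1.17. Nebl, the actin-binding Z-disc protein nebulette, fell in DP KO (-0.56, adjusted p 0.000479) and rose in CD4 KO (2.20, 1.22e-06). Of the 7 gelsolin family genes, none was higher in either cell type, and 1 was lower in DP and 3 in CD4. Gsn, gelsolin itself, averaged 47.3 ± 3.56 CPM in DP KO and 145 ± 9.35 CPM in DP WT (-1.60, adjusted p 1.30e-06), and 70.7 ± 17.6 CPM in CD4 KO and 193 ± 8.37 CPM in CD4 WT (-1.45, 8.33e-05), so the 2 actin-severing relatives Scin and Gsn stood on opposite sides of 0. Vill, villin-like, fell in CD4 KO (-1.48, 0.000373).

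Of the partners of Nyap2, in the WAVE complex and PI3-kinase, 6 of 19 were higher and 5 lower in DP, and 2 of 18 higher and 6 lower in CD4. Nyap1, the nearest relative, averaged 45.3 ± 1.14 CPM in DP KO and 110 ± 10.4 CPM in DP WT (log2 fold change -1.27, edgeR adjusted p 5.68e-06), against 23.3 ± 2.38 CPM in CD4 KO and 17.4 ± 3.68 CPM in CD4 WT (0.42, adjusted p 0.0582). Cyfip1, a WAVE complex subunit, rose in DP KO (2.03, adjusted p 1.14e-05), while its CD4 value of 0.60 (adjusted p 0.0200) was 0.55 to 0.63 without any 1 of the 3 CD4 WT libraries, with adjusted p of 0.0528 to 0.0532. Pik3r3, a regulatory subunit of PI3-kinase, fell in DP KO (-1.17, 0.000223) and CD4 KO (-1.61, 6.66e-06). Of the ankyrin coiled-coil relatives of Ankrd35, 1 of 3 was lower in DP, and 2 of 4 were higher and 1 lower in CD4. Uaca, of this group, fell in DP KO (-2.16, 8.36e-06) and rose in CD4 KO (0.89, 0.0127), and Ankrd26 had log2 fold changes of -0.04 and 0.13 that did not pass.

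The estrogen-related list of Greb1 was split, with 2 of 9 higher and 3 lower in DP and 5 of 10 higher and 3 lower in CD4. Xbp1, a target of the estrogen receptor in human breast cells, fell in DP KO (-1.22, edgeR adjusted p 6.43e-06) and CD4 KO (-0.32, 0.00763). Myb fell in DP KO (-0.87, 2.88e-05) and rose in CD4 KO (1.74, 1.27e-06), and Igfbp4, an IGF-binding protein, fell in CD4 KO, at 20.5 ± 8.71 CPM against 361 ± 51.3 CPM in CD4 WT (-4.13, 1.02e-05). Greb1l, the paralogue of Greb1, averaged 0.573 ± 0.0593 CPM in DP KO and 0.641 ± 0.369 CPM in DP WT, and 0.672 ± 0.134 CPM in CD4 KO and 0.289 ± 0.110 CPM in CD4 WT. Its CD4 value of 1.21 (adjusted p 0.0464) was 0.92 to 1.53 and did not pass whichever of the 6 CD4 libraries was left out, nor did it pass with the replicate block (1.22, adjusted p 0.0575) or by the DESeq2 Wald test (1.21, adjusted p 0.0617).

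The lists of Hlf held the most changes toward higher levels in DP: 10 of 20 PAR bZIP and clock genes were higher and 2 lower, and 5 of 8 stem cell genes were higher and none lower. In CD4 the counts were 7 of 21 higher and 4 lower, and 4 of 10 higher and 3 lower. Dbp and Tef, the other PAR bZIP factors, are named for that kinship. Dbp averaged 11.2 ± 1.02 CPM in DP KO and 5.49 ± 0.687 CPM in DP WT (log2 fold change 1.03, edgeR adjusted p 0.000612), and 8.88 ± 0.579 CPM in CD4 KO and 13.1 ± 2.25 CPM in CD4 WT (-0.55, 0.0129, or -0.49 and 0.0559 without CD4 KO replicate 2). Tef rose in DP KO (0.52, 0.00114, or 0.44 and 0.0688 against DP WT replicate 3 alone), with a CD4 value of 0.12 (adjusted p 0.486). Nr1d1, which encodes the clock repressor REV-ERB alpha, rose in DP KO (1.90, 4.50e-06) and CD4 KO (1.38, 0.000729), as did Nr1d2 (0.90, 0.000400 and 0.98, 0.00234). Clock rose in DP KO (1.17, 1.95e-05), and its CD4 value of 0.37 (0.0166) was 0.34 without CD4 WT replicate 2, with an adjusted p of 0.0656. The nuclear receptor gene Rora averaged 34.6 ± 12.1 CPM in DP KO and 5.43 ± 0.323 CPM in DP WT (2.68, 2.54e-05), against 37.3 ± 18.4 CPM in CD4 KO and 37.2 ± 7.96 CPM in CD4 WT. Among stem cell genes, Kit, the stem cell factor receptor, rose in both (1.54, 0.000372 in DP and 1.62, 4.01e-06 in CD4), and so did Mycn (1.82, 2.37e-05 and 4.23, 3.43e-06). These 2 do not stand for their list, of whose 19 genes 8 were tested in DP and 10 in CD4. Its log2 fold changes ran from -1.73 to 1.82 in DP (median 0.82) and from -3.13 to 4.23 in CD4 (median -0.21).

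For the P2Y-like receptors related to Gpr82, 3 of 7 were higher and 1 lower in DP, and 1 of 7 higher and 2 lower in CD4. P2ry10, a lysophosphatidylserine receptor gene also on the X chromosome, averaged 392 ± 23.1 CPM in DP KO and 147 ± 6.30 CPM in DP WT (log2 fold change 1.43, edgeR adjusted p 1.21e-06), and 227 ± 49.3 CPM in CD4 KO and 52.6 ± 7.07 CPM in CD4 WT (2.11, 9.86e-06). Gpr171 rose in DP KO (0.50, adjusted p 0.00511, or 0.35 and 0.193 against DP WT replicate 3 alone), and Gpr174 fell in CD4 KO (-1.58, 5.75e-07).

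**Figure D5:**
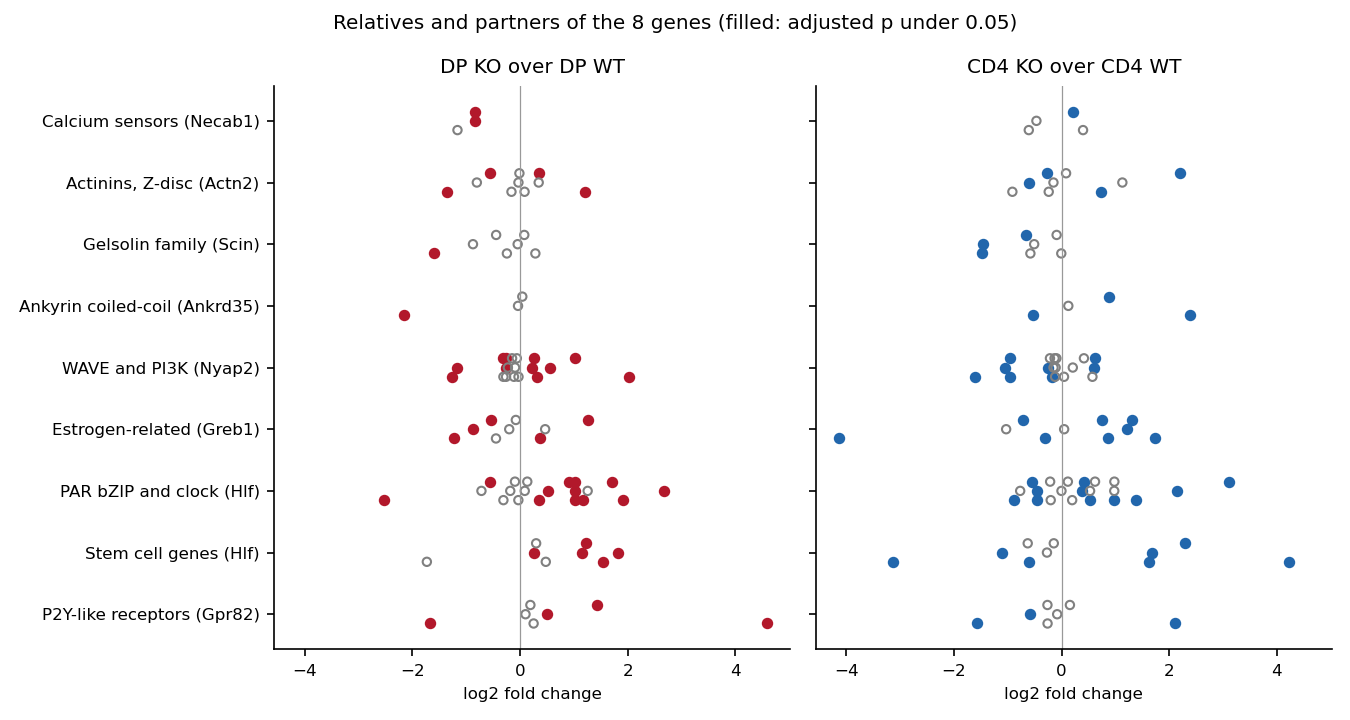
Log2 fold change of KO over WT for every tested gene of the 9 lists of relatives and partners, in DP (left) and CD4 (right), 1 row per list. Filled points have an edgeR adjusted p under 0.05. The gelsolin family has none to the right of 0 that passed, while the PAR bZIP and clock list has 10 in DP and 7 in CD4.

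Because several of the 8 genes belong to muscle, nerve or stem cells elsewhere, markers of other cell types were summed in each group. The 8 muscle or myoid markers summed to 4.09 to 5.08 CPM in DP KO libraries and 7.10 to 9.99 CPM in DP WT, and to 4.65 to 6.65 CPM in CD4 KO and 6.54 to 7.74 CPM in CD4 WT, and 2 of the 3 tested in DP and 1 of the 3 tested in CD4 were lower in KO. Myog and Myod1, the regulators that define muscle cells, were at 0 in all KO libraries. Of the muscle protein genes, Acta1 averaged 0.390 CPM in CD4 KO and 0.303 CPM in CD4 WT, and Myh3 0.252 CPM in CD4 KO and 0.0733 CPM in CD4 WT. The 8 stroma and epithelium markers summed to 1.34 to 2.31 CPM in DP KO and 5.27 to 6.38 CPM in DP WT, and to 6.48 to 8.48 CPM in CD4 KO and 5.26 to 6.12 CPM in CD4 WT. The 6 nerve markers summed to 12.7 to 13.4 CPM in DP KO and 4.05 to 5.004 CPM in DP WT, and 12.5 to 14.003 CPM in CD4 KO and 8.03 to 9.81 CPM in CD4 WT. Of the 2 nerve markers tested in each cell type, 1 was higher and 1 lower in KO. Tubb3, a tubulin, gave most of that sum in DP KO (12.7 CPM, against 3.21 CPM in DP WT). Rbfox3 went the other way in DP (0.139 CPM in KO and 0.559 CPM in WT, log2 fold change -2.02), as did Map2 in CD4 (0.984 CPM in KO and 5.03 CPM in WT, -2.37). Snap25 and Syt1, which define neurons, were at or near 0 in all groups. B cell markers summed to 20.9 to 26.2 CPM in DP KO and 16.4 to 21.2 CPM in DP WT, and to 20.1 to 30.1 CPM in CD4 KO and 6.27 to 17.3 CPM in CD4 WT, and myeloid markers to 12.7 to 19.1 CPM in DP KO and 17.7 to 21.6 CPM in DP WT, and 15.9 to 49.3 CPM in CD4 KO and 17.8 to 43.6 CPM in CD4 WT. Erythroid markers varied most within a group, from 67.9 to 332 CPM in DP KO and 26.2 to 199 CPM in DP WT, and from 49.2 to 220 CPM in CD4 KO and 23.4 to 138 CPM in CD4 WT. The part of RNA from muscle or any other cell type in the levels of the 8 genes was not tested. All 9 T lineage and stage genes were read in every group, with 7 lower and none higher in DP KO than in DP WT, and 5 lower and 3 higher in CD4 KO than in CD4 WT, as given above for the stage genes.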

How the data were processed

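Poly(A) RNA of sorted DP and CD4 thymocytes was sequenced as paired reads, per the labels' protocols. Raw counts of reads per gene were deposited in 2 tables, 1 per cell type, each with 6 libraries and the same 49997 genes. Named without their roles in the submitters' processing notes are R 4.1.5, DESeq2, Subread 1.0.1 and the build mm10. Aligner, strand setting and the handling of multiply matching reads are not stated. The gene length, another column the authors deposited, was used to set levels per kilobase. No column of per-library values was left unused.

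The counts were tested with edgeR 4.0.16 (quasi-likelihood test, TMM normalization, default low-count filter, Benjamini-Hochberg adjustment over all genes tested, calls at 0.05) and limma 3.58.1 in R 4.3.3. Unless another tool is named, every adjusted p comes from this edgeR test. Standard errors are the log2 fold change over the square root of F, and fold changes used a prior count of 0.125. CPM used TMM-adjusted library sizes. The DP and CD4 comparisons used the 6 libraries of a table, the WT comparison the 6 WT libraries (for the 8 genes a description, since the rule used WT levels, although a test had been planned), and the interaction all 12. The fits were tested on simulated data. Figures used matplotlib 3.10.9 in Python 3.11.15.

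The members and lists were chosen with earlier results of these data known. Relatives named are up to 3 per list and comparison with the smallest adjusted p, and those sharing a symbol root. Neighbours named are up to 2 per gene and comparison with the smallest adjusted p among those called, plus overlapping genes. A few of the genes so chosen and 1 marker list are not reported here. The detection limit of 3 counts and the interval given cover counting error only.

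Batch and replicate number are the same in the labels, so the numbers were taken to pair the libraries. Deviations from the group means in same-numbered KO and WT libraries correlated with r of 0.0195, -0.00176 and 0.176 in DP and 0.116, 0.159 and 0.343 in CD4. For numbers 1 and 2 in DP and 1 in CD4 the r with another number was higher, so the deviations do not show the pairing between KO and WT throughout. Between the cell types r was 0.230, 0.365 and 0.486 for KO and 0.221, 0.147 and 0.265 for WT. The fits were repeated with limma-voom, with the Wald test and separately the size factors of DESeq2 1.42.0, without a filter or with one at a mean of 10 counts, with the replicate block, over all 12 libraries at once, without each library, with other limits and windows, and with the other 2 DP WT libraries removed so that replicate 3 stood alone. That last choice was made after the data were seen.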

Additional observations from a re-analysis of the deposited data

Results flagged for a closer look

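Several genes named above had a KO effect that differed between the cell types, by the interaction of genotype and cell type in edgeR's quasi-likelihood test over all 12 libraries (adjusted p under 0.05, as for 27.8% of all genes tested). Each value is the log2 fold change of KO over WT in CD4 minus that in DP. For the 8 genes themselves the same difference is a description only: it was -3.16 for Actn2, -1.60 for Scin and 1.55 for Greb1.

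Among neighbours, the effect was smaller, or further below 0, in CD4 for Tmem64 (-2.50), Pip4p2 (-1.09), Pias3 (-0.79), Pqlc3 (-0.57), E2f6 (-0.40), Lpin1 (-0.66), Dock10 (-0.48), Dock4 (-1.33) and Gpr34 (-4.44), and the difference was above 0 for Lsmem1 (3.17), Mmd (0.76) and Stxbp4 (0.98). Gpr34 had the widest of these, beside Gpr82, whose own difference was 0.07 as a description.

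Among relatives and partners, the difference was below 0 for Actn1 (-0.59), Clock (-0.78), Cyfip1 (-1.41), Dbp (-1.57), Gpr171 (-0.57), Gpr174 (-1.67), Igfbp4 (-3.65), Rora (-2.67) and Vill (-1.23). It was above 0 for Actn4 (0.25), Hpcal1 (1.06), Myb (2.62), Mycn (2.41), Nebl (2.77), Necab3 (1.25), Nyap1 (1.69), P2ry10 (0.69), Uaca (3.05) and Xbp1 (0.92). The value of Igfbp4 rests on 1 library: DP KO held 0.460, 6.38 and 0.0924 CPM in replicates 1, 2 and 3, and without replicate 2 the difference was -0.74 (adjusted p 0.619), with a log2 fold change in DP of -3.40 (adjusted p 0.00429) in place of -0.45. By limma-voom it was -2.13 (adjusted p 0.200). The difference of Actn4 was 0.19 to 0.25 and did not pass when any library but CD4 WT replicate 1 was left out. That of E2f6 was -0.43 to -0.36 and did not pass without any 1 of 7 libraries (DP WT replicates 1 and 2, DP KO replicates 1 and 3, CD4 WT replicates 1 and 2 and CD4 KO replicate 2). That of Dock4 was -1.32 to -1.18 and did not pass without DP WT replicate 3, DP KO replicate 1 or CD4 WT replicate 2, and by limma-voom (-1.36, adjusted p 0.0741). With no low-count filter, Actn4 (0.21, adjusted p 0.239) and E2f6 (-0.44, adjusted p 0.0676) did not pass either.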

How the results depend on the processing

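Calls of whole tables, neighbours and relatives stayed within 1.5 times of their main counts under the other fits, filters and windows tried, except for neighbours in CD4 with a window of 1000 kb (43 called, against 24). Against DP WT replicate 3 alone, which is assumed to vary like the KO libraries, 1907 genes were called in DP in place of 5167, 8 neighbours in place of 28 and 20 relatives in place of 45 (the cause was not tested). With each library left out in turn, 20 to 29 neighbours were called in DP and 21 to 26 in CD4, and 32 to 46 relatives in DP and 35 to 44 in CD4. The near-silent genes switched on numbered 70 in DP and 74 in CD4 with a WT limit of 2 CPM, and 15 and 12 with a KO limit of 10 CPM, against 30 each, the limits themselves setting the count.

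With the replicate block, which takes up the batch, 29 neighbours were called in DP and 28 in CD4, and 42 and 53 relatives. It ended 1 call among the genes named, that of Greb1l in CD4 (adjusted p 0.0575). Of 59 called values of named genes in DP and CD4, 48 kept their call in every alternative.

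No value of the 8 genes changed direction. The fitted log2 fold change of Ankrd35 in DP was 12.69 against DP WT replicate 3 alone, where it had no count, and that of Gpr82 in DP ran from 4.87 without DP WT replicate 2 to 6.58 without replicate 1. With a prior count of 2 the CD4 value of Necab1 was 8.41. Depth limits the WT levels, where 5 to 435 counts per group stood behind a gene.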
